A study of Saccharomyces cerevisiae with 15 samples.

Results

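Yeast cells with both Hsp70 contact sites of the heat shock factor mutated, grown without heat, were compared with wild-type yeast after a short heat shock. The comparison took 6 of the 15 messenger RNA libraries of the series, chosen by their labels alone. They were 3 libraries of hsf1-mNmC, an HSF1 allele with the amino-terminal and the carboxyl-terminal site mutated, kept at 30 °C, and 3 of wild-type HSF1 moved to 37 °C for 15 min. The 3 libraries of wild-type HSF1 at 30 °C served as a common baseline for both. All were Saccharomyces cerevisiae cultures in mid-log phase in YPD, a rich glucose medium, and the 3 libraries of a group are biological replicates per the series' design. The labels do not state the strain background, how the HSF1 alleles are carried or whether a genotype is 1 clone. The 2 groups differ in genotype and in temperature at once, so effects of genotype and of heat cannot be told apart in their direct comparison. Expression was deposited as FPKM, fragment counts scaled to gene length and library depth, and 6399 of 7126 genes had at least 1 FPKM in at least 3 of the 15 libraries and were tested. Depth was 15.5 to 18.9 M reads in mNmC and 18.3 to 22.6 M reads at 37 °C (M, 1e6), as recovered from the values, with 6526 to 6615 genes above 0 in these libraries.

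Hsf1 is the transcription factor that binds heat shock elements, inverted repeats of the unit GAA, and drives chaperone genes in yeast. Hsp70 chaperones bind Hsf1 and hold it back, and are thought to let go of it when heat brings them misfolded client proteins. Heat does more than free Hsf1, as it also activates Msn2 and Msn4, which bind the stress response element AGGGG in genes of general stress defence. At the same time heat briefly turns down genes for ribosomes through the TOR and protein kinase A pathways. An Hsf1 with mutated Hsp70 contact sites therefore offers a way to ask which of the genes altered by heat shock are also altered without heat. Most of the mutant libraries also had less HSF1 mRNA than unheated wild type, and shifts across the genes of chromosomes III and VI, described below. Whether a given change followed from the release of Hsf1 was not tested.

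HSF1, the altered gene itself, had 52.1, 59.4 and 149.9 FPKM in the libraries labelled mNmC 1 to 3, against 159, 148 and 67.6 FPKM in those labelled 37 °C 1 to 3 and 155 ± 2.97 FPKM in wild type at 30 °C (SD, n = 3). The level was low in mNmC 1 and 2 and in the library labelled 37 °C replicate 3, and near the baseline in the other 3 libraries, so that the groups as labelled overlapped. This pattern held far beyond HSF1. Spearman correlations taken across all tested genes, which are not independent of each other, averaged 0.921 between the library labelled mNmC replicate 3 and mNmC 1 and 2, and 0.997 between it and 37 °C 1 and 2. For the library labelled 37 °C replicate 3 they averaged 0.996 with mNmC 1 and 2 and 0.918 with 37 °C 1 and 2. In 5430 genes (84.9%) the 2 remaining libraries of each group did not overlap, and there the library labelled mNmC replicate 3 was nearer to the 37 °C pair in 5063 genes (93.2%). The library labelled 37 °C replicate 3 was nearer to the mNmC pair in 5009 genes (92.2%). Groups were kept as labelled. Counts over all genes and the leading genes are given for all 15 libraries as labelled and for 13 libraries, without these 2. Counts over gene lists and log2 fold changes below, as mNmC minus 37 °C ± SE, are from the 13 libraries unless stated. With 13 libraries each of the 2 groups rests on 2 libraries, and the spread is pooled over the 5 groups of the series.

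As labelled, limma called 0 of 6399 genes different between mNmC and heat-shocked wild type (0% called, smallest adjusted p = 0.753), and 65 genes had an unadjusted p under 0.05. In 121 genes (1.89%) the 3 mNmC libraries did not overlap the 3 at 37 °C, 88 of them above (1.38%) and 33 below (0.516%). With 13 libraries 3637 genes were called (56.8%), 1794 higher (28%) and 1843 lower (28.8%) in mNmC, and 1139 of them differed by more than 2-fold, 495 higher and 644 lower. The median log2 fold change of all tested genes was -0.003, and 0.016 after each library was scaled to its upper quartile, so the 2 groups were centred alike. For 1671 genes the 95% interval of the fold change lay within 0.5 of 0 on the log2 scale. As no gene was called as labelled, no member of any list below passed between mNmC and 37 °C with all 15 libraries, and list medians were smaller. The median was -0.81 as labelled beside -2.43 with 13 libraries for Msn2/4 genes, -0.74 beside -2.14 for trehalose and glycogen and -0.34 beside -1.13 for the unfolded protein response. It was 0.65 beside 1.90 for ribosomal proteins, 0.52 beside 1.44 for ribosome assembly factors and 0.07 beside 0.22 for Hsf1 target chaperones. HSF1 mRNA was lower in mNmC, with a log2 fold change of -1.45 ± 0.11 (limma adjusted p = 9.94e-07). As labelled its difference was -0.59 ± 0.36 (limma adjusted p = 0.753). The mutated sites lie in the HSF1 coding sequence, and the mRNA level is no check of them.

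Genes of 2 chromosomes stood apart as blocks. The plot of chromosome medians sets each library against wild type at 30 °C, gene by gene, and centres the 16 chromosome medians of a library on their own median. On chromosome VI the centred median was -0.86 and -0.86 in mNmC 1 and 2 and -0.82 in the library labelled 37 °C replicate 3. It was 0.10 and 0.11 in 37 °C 1 and 2 and 0.11 in the library labelled mNmC replicate 3. On chromosome III it was 0.45 and 0.42 in mNmC 1 and 2 and 0.45 in the library labelled 37 °C replicate 3, against -0.03 and -0.04 in 37 °C 1 and 2 and -0.02 in the library labelled mNmC replicate 3. The other 14 chromosomes stayed between -0.08 and 0.08 in these 6 libraries. In the single-site mutants of the series, mN and mC, chromosome III lay between -0.03 and 0.05 and chromosome VI between 0.05 and 0.11. The blocks set mNmC 1 and 2 and the library labelled 37 °C replicate 3 apart from the other libraries of the series, heated or not.

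**Figure D1:**
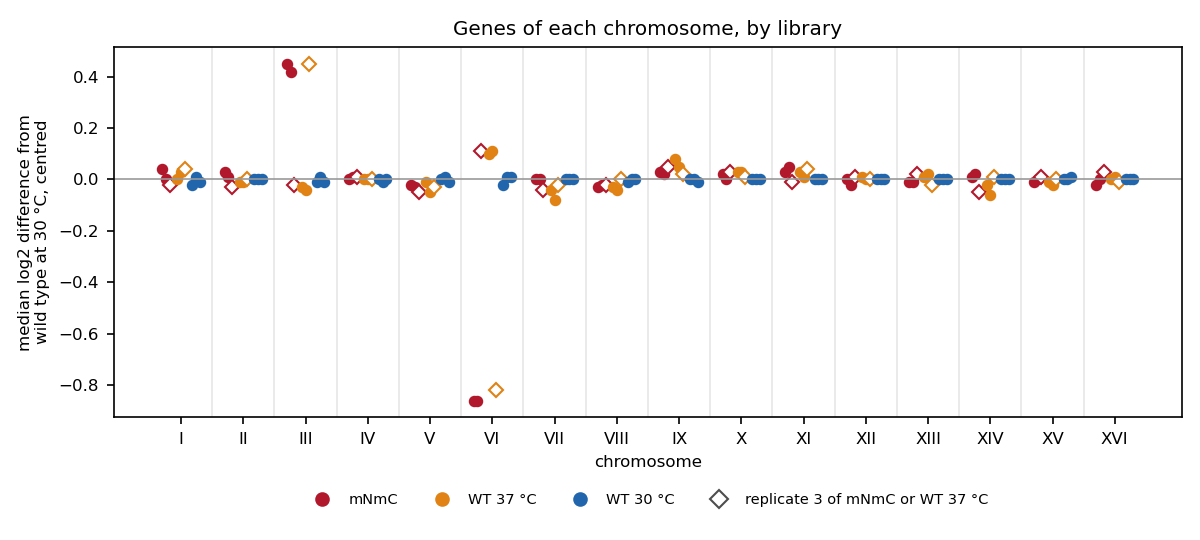
Median log2 difference in FPKM (with 1 added) from wild type at 30 °C over the genes of each chromosome, centred within a library, for mNmC, wild type at 37 °C and wild type at 30 °C. Each point is 1 library, open diamonds are the libraries labelled replicate 3 of mNmC and 37 °C, and chromosomes III and VI separate mNmC 1 and 2 and the library labelled 37 °C replicate 3 from the rest.

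The shift ran along the whole of both chromosomes. Against wild type at 37 °C, 100 of 128 tested genes of chromosome VI (78.1%) were called lower in mNmC and 7 higher, with a median of -0.94, where 27.8% of 5624 genes on the other 14 chromosomes were lower. Of 154 genes of chromosome III, 89 (57.8%) were called higher and 15 lower, with a median of 0.48, where 29.6% on the other 14 were higher. Divided by gene order into 10 stretches, chromosome VI had medians of -1.33 to -0.65 and chromosome III of 0.24 to 0.75. Against wild type at 30 °C the medians were -0.61 on VI and 0.70 on III, beside 0.25 on the other 14. There the first stretch of chromosome VI, whose 13 genes start 0.8 to 23.4 kb from the left end in the R64 assembly, was the exception, with a median of 0.13 beside -0.77 to -0.58 in the other stretches. Whether the number of copies of these chromosomes differed between the strains was not tested. Without the genes of both chromosomes, an alternative added after seeing the data, 3417 of 6117 genes were called (55.9%), 1692 higher and 1725 lower. Where a gene described below was matched to either of them, this is stated. The 493 tested genes with no match in the annotation, among them the transfer RNA genes, stayed in.

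The widest gap between the mutant and heat shock lay in the general stress genes of Msn2 and Msn4. CTT1 (YGR088W), the cytosolic catalase, had 21.4, 22.7 and 979.8 FPKM in the libraries labelled mNmC 1 to 3, against 1003, 1009.8 and 20.4 FPKM in those labelled 37 °C 1 to 3 and 15.6 ± 1.17 FPKM in wild type at 30 °C (SD, n = 3). The mNmC libraries 1 and 2 lay close to the unheated baseline, and 37 °C 1 and 2 far above it, without overlap. ALD3 (YMR169C), an aldehyde dehydrogenase, had 20.5, 23.8 and 904 FPKM in mNmC 1 to 3, against 959, 1059 and 18.5 FPKM in 37 °C 1 to 3 and 11.7 ± 0.613 FPKM at 30 °C. HSP26 (YBR072W), a small heat shock protein that binds unfolded proteins, had 252, 225 and 8599 FPKM in mNmC 1 to 3, against 8666, 8896 and 228 FPKM in 37 °C 1 to 3 and 169 ± 9.18 FPKM at 30 °C. In all 3 genes the library labelled replicate 3 of each group lay with the other group, and the other libraries did not overlap. The rule that named these genes required that absence of overlap, which was also seen in 84.9% of all tested genes. With 13 libraries CTT1 differed by -5.45 ± 0.15 (limma adjusted p = 4.1e-10), ALD3 by -5.45 ± 0.11 and HSP26 by -5.20 ± 0.20. As labelled none of them passed, and CTT1 stood at -1.79 ± 1.48 (limma adjusted p = 0.753).

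**Figure D2:**
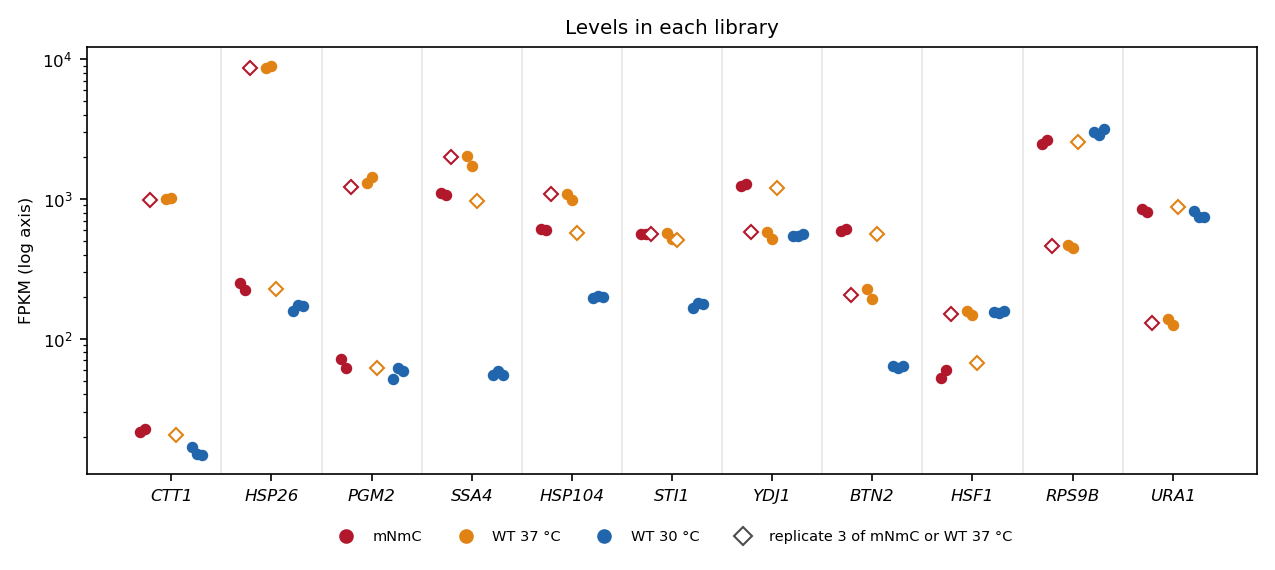
FPKM (log axis) of 11 genes in each library of mNmC, wild type at 37 °C and wild type at 30 °C, 1 point per library, with open diamonds for the libraries labelled replicate 3 of mNmC and 37 °C. CTT1, HSP26 and PGM2 of mNmC 1 and 2 lie near the 30 °C libraries, SSA4 and STI1 lie far above them, and YDJ1 and BTN2 lie above both.

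The promoters of the 3 protein-coding genes with the lowest fold changes are shown so that the motifs of the 2 heat-responsive systems can be looked for in them. Each window runs from 250 bases before to 50 after the annotated gene start, where the coding sequence begins, in the RefSeq annotation of the R64 assembly, read 5′ to 3′ on the strand of the gene. Capitals mark the stress response element AGGGG (or its reverse complement CCCCT) and heat shock elements. A heat shock element was searched with 2 units, as GAANNTTC or TTCNNGAA, and with 3, as either of these extended by NN and one more GAA or TTC in alternation, on both strands, and every match of 3 units contains matches of 2. The windows are CTT1 at chrVII:654384-654683, plus strand, ALD3 at chrXIII:600823-601122, minus strand, and HSP26 at chrII:381780-382079, plus strand.
CTT1: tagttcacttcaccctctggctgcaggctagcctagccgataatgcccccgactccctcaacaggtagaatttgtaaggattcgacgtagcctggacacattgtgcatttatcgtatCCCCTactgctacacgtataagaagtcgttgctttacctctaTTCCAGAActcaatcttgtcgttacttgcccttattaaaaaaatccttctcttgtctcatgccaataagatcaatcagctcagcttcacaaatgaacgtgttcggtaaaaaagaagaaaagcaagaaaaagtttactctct
ALD3: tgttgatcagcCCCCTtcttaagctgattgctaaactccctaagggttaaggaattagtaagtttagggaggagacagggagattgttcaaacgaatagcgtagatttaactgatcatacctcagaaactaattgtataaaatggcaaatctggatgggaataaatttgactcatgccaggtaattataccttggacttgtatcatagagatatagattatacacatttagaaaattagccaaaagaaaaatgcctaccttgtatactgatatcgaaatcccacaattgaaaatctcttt
HSP26: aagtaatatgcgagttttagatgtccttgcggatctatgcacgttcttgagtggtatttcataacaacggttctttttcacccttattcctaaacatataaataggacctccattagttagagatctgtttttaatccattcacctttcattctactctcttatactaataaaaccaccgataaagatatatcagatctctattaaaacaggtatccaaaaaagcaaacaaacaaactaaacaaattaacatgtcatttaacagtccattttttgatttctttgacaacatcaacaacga
CTT1 held 1 stress response element, 128 bases before the start, and 1 heat shock element of 2 units, 83 bases before it. ALD3 held 1 stress response element, 234 bases before the start. The HSP26 window held neither motif in these letters. A match is a run of letters and does not show that a factor binds.

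The 15 lowest genes by the naming rule had log2 fold changes of -5.45 to -4.12 and limma adjusted p between 9.78e-11 and 0.00047. Beside those above, they were RTC3 (-4.91 ± 0.11), HSP12 (-4.73 ± 0.42), which encodes a membrane-associated stress protein, SOL4 (-4.52 ± 0.12), an enzyme of the pentose phosphate pathway, and PGM2 (-4.34 ± 0.12), a phosphoglucomutase. HXT5 (-4.12 ± 0.11), a hexose transporter of slow growth, and RTN2 (-4.12 ± 0.22), a reticulon of the endoplasmic reticulum, were also among the 15. So were FMP45 (-4.25 ± 0.17), HBN1 (-4.98 ± 0.11) and YER053C-A (-4.16 ± 0.27). HSP12 lies on chromosome VI and HBN1 on chromosome III. HSP12 stood above the baseline in mNmC 1 and 2 as well, with 509, 740.1 and 15099.9 FPKM in mNmC 1 to 3, against 16693, 15889 and 402 FPKM in 37 °C 1 to 3 and 52.9 ± 6.86 FPKM at 30 °C. The remaining 3 of the 15, at ranks 3, 11 and 12 from the lowest, were transfer RNA genes, whose products carry no poly(A) tail. The glutamine tRNA gene tQ(UUG)C had 0, 0.743 and 64.8 FPKM in mNmC 1 to 3, against 67.4, 41.5 and 1.84 FPKM in 37 °C 1 to 3 and 0.505 ± 0.875 FPKM at 30 °C, so that its mNmC level rests on almost no reads and no fold change is given. Its symbol ends in the letter that stands for chromosome III in the naming of yeast tRNA genes. For tA(AGC)L the values were 2.66, 3.67 and 104 FPKM in mNmC 1 to 3, against 81.4, 68.4 and 1.21 FPKM in 37 °C 1 to 3 and 3.28 ± 1.45 FPKM at 30 °C. For tK(UUU)K they were 1.77, 1.47 and 47.2 FPKM in mNmC 1 to 3, against 51.5, 42.2 and 3.64 FPKM in 37 °C 1 to 3 and 0.983 ± 0.863 FPKM at 30 °C.

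Of 33 general stress genes of Msn2 and Msn4, 32 were lower in mNmC than at 37 °C, 0 were higher and TMA10 -0.21 (95% interval -1.02 to 0.60) did not pass. Across all tested genes 28.8% were called lower. The list median was -2.43, beside -0.003 for all genes. Both groups can be read against wild type at 30 °C, which the comparisons share. In mNmC 24 of the 33 were higher than that baseline and 1 lower, with a median of 0.69, and at 37 °C 33 were higher, with a median of 3.38. As labelled, 26.9% of all genes were called in mNmC against that baseline and 38.1% at 37 °C, and with 13 libraries 48% and 65.9%. With 13 libraries 40.6% were called higher and 7.39% lower in mNmC, and 47% higher and 18.9% lower at 37 °C, with medians of 0.25 and 0.29. Upper-quartile scaling brought those 2 medians to 0.06 and 0.07, so changes against 30 °C below are read against 0.25 and 0.29. It also evened out the directions, with 1422 genes higher and 981 lower in mNmC, in place of 2598 and 473, and 2251 higher and 1857 lower at 37 °C, in place of 3008 and 1209. Of the 33 stress genes it left 22 higher and 3 lower in mNmC, and as labelled 11 were higher and 0 lower. The lower gene of mNmC was HXK1, a hexokinase gene of chromosome VI, at -0.66 in mNmC against 2.40 at 37 °C. Without the 3 members on chromosomes III and VI, 29 of 30 were lower than at 37 °C.

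Hsf1 target chaperones went both ways. Of 21 genes, 7 were higher in mNmC than in heat-shocked wild type, 5 were lower and 9 did not pass, with a median of 0.22 (28% of all genes were called higher and 28.8% lower). Against 30 °C, 20 were higher in mNmC with a median of 1.42, and 19 were higher at 37 °C with a median of 1.12. In this setting 0 were lower in either. With upper-quartile scaling 19 were higher and 0 lower in mNmC (median 1.21), and 17 higher and 1 lower at 37 °C (median 0.89). As labelled none of the 21 passed between mNmC and 37 °C. MDJ1, a mitochondrial J-protein gene, is the member on chromosome VI.

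**Figure D3:**
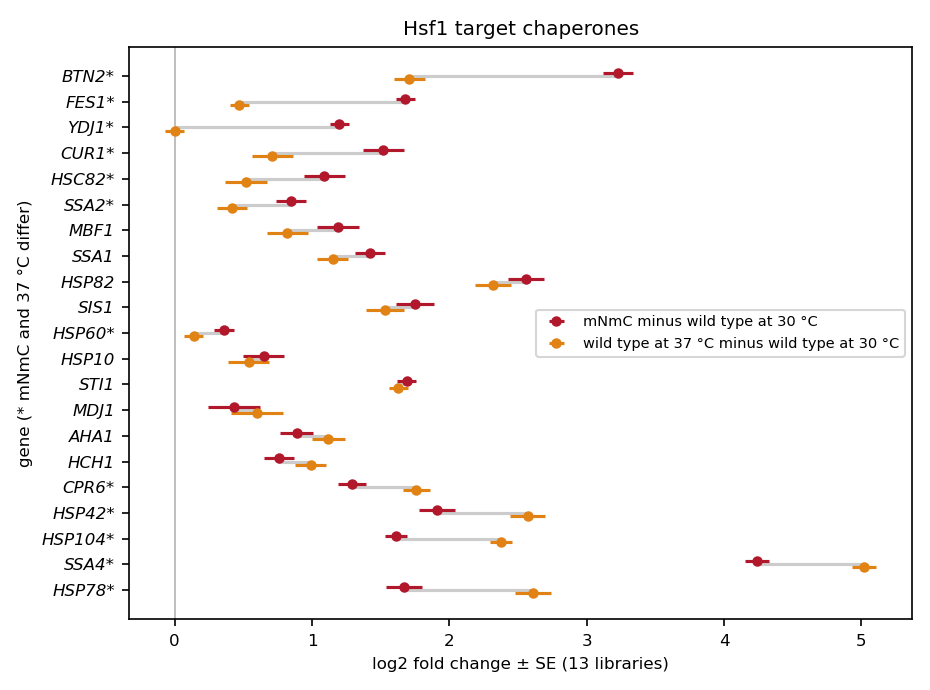
Log2 fold change ± SE of 21 Hsf1 target chaperone genes against wild type at 30 °C, for mNmC and for wild type at 37 °C, from 13 libraries, ordered by the difference between them. An asterisk marks the 12 genes called different between mNmC and 37 °C, with BTN2, FES1 and YDJ1 higher in mNmC and HSP78, SSA4 and HSP104 higher at 37 °C.

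The genes higher in the mutant were led by factors that sort misfolded proteins and assist Hsp70. BTN2 (YGR142W), which gathers misfolded proteins into aggregates, had 589.9, 610.0 and 205 FPKM in the libraries labelled mNmC 1 to 3, against 228, 192 and 565 FPKM in those labelled 37 °C 1 to 3 and 63.2 ± 1.12 FPKM in wild type at 30 °C (SD, n = 3). YDJ1 (YNL064C), the main cytosolic J-protein and a stimulator of Hsp70, had 1238, 1282 and 584 FPKM in mNmC 1 to 3, against 581, 514 and 1208 FPKM in 37 °C 1 to 3 and 547 ± 9.55 FPKM at 30 °C. FES1 (YBR101C), a nucleotide exchange factor of Hsp70, had 505, 519 and 226 FPKM in mNmC 1 to 3, against 231, 210.5 and 467 FPKM in 37 °C 1 to 3 and 159 ± 2.94 FPKM at 30 °C. In each of them mNmC 1 and 2 lay above 37 °C 1 and 2 without overlap, and YDJ1 at 37 °C stood at its unheated level. These pairs were apart, in either direction, in 84.9% of all tested genes. The log2 differences were 1.52 ± 0.12 (limma adjusted p = 7.97e-07) for BTN2, 1.20 ± 0.08 for YDJ1 and 1.21 ± 0.07 for FES1. CUR1 (0.80 ± 0.17), a relative of BTN2, HSC82 (0.57 ± 0.16), the constitutive Hsp90, SSA2 (0.43 ± 0.12), a constitutive Hsp70, and HSP60 (0.22 ± 0.07), the mitochondrial chaperonin, completed the 7.

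Those lower in the mutant included chaperones that refold or hold aggregated protein. SSA4 (YER103W), the heat-inducible Hsp70, had 1105, 1063 and 2007 FPKM in the libraries labelled mNmC 1 to 3, against 2019.9, 1718 and 972 FPKM in those labelled 37 °C 1 to 3 and 56.4 ± 2.08 FPKM in wild type at 30 °C (SD, n = 3). It was far above the baseline in every library of both groups, and the mNmC pair lay below the 37 °C pair. HSP104 (YLL026W), the cytosolic disaggregase, had 616, 603 and 1083 FPKM in mNmC 1 to 3, against 1088, 989 and 573 FPKM in 37 °C 1 to 3 and 198 ± 3.79 FPKM at 30 °C. HSP78 (YDR258C), its mitochondrial relative, had 122, 119 and 233 FPKM in mNmC 1 to 3, against 236, 231 and 114 FPKM in 37 °C 1 to 3 and 37.4 ± 1.18 FPKM at 30 °C. HSP42 (YDR171W), a small heat shock protein, had 444, 438 and 709 FPKM in mNmC 1 to 3, against 731, 671 and 411 FPKM in 37 °C 1 to 3 and 117 ± 9.14 FPKM at 30 °C. All 4 were raised in both groups, by 4.24 in mNmC and 5.02 at 37 °C for SSA4 and by 1.61 in mNmC and 2.38 at 37 °C for HSP104 on the log2 scale, and stood lower in mNmC than at 37 °C. The differences were -0.78 ± 0.10 (limma adjusted p = 3.72e-05) for SSA4, -0.77 ± 0.08 for HSP104, -0.94 ± 0.15 for HSP78 and -0.67 ± 0.15 for HSP42. CPR6 (-0.47 ± 0.11), a prolyl isomerase that works with Hsp90, was the last of the 5.

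Some of the strongest Hsf1 targets did not pass between the groups. STI1 (YOR027W), which links Hsp70 to Hsp90, had 559.8, 566 and 564 FPKM in mNmC 1 to 3, against 568, 514 and 509.6 FPKM in 37 °C 1 to 3 and 174 ± 7.99 FPKM at 30 °C. The groups overlapped and all 6 libraries lay well above the baseline, by 1.69 in mNmC and 1.63 at 37 °C on the log2 scale, and the difference between the groups was 0.06 (95% interval -0.11 to 0.22). HSP82, the inducible Hsp90, differed by 0.24 (95% interval -0.08 to 0.55), and SIS1, an essential J-protein, by 0.22 (95% interval -0.13 to 0.57). Against 30 °C, HSP82 was higher by 2.56 in mNmC and 2.32 at 37 °C. For SSA1 the difference was 0.27 (95% interval 0 to 0.54), for AHA1 -0.23 (95% interval -0.53 to 0.07), for HCH1 -0.23 (95% interval -0.50 to 0.05), for MBF1 0.36 (95% interval 0 to 0.72), for MDJ1 -0.17 (95% interval -0.64 to 0.30) and for HSP10 0.11 (95% interval -0.24 to 0.46). These intervals leave room for modest differences, mostly in either direction, and with upper-quartile scaling MBF1 passed as higher in mNmC. Near-identical pairs such as SSA1 and SSA2 or HSP82 and HSC82 share reads, whose assignment the labels do not state, and their single levels are uncertain to that extent.

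Promoters of chaperones that were lower in the mutant and of others that were not are shown side by side to compare their motifs. These 4 were chosen after their values were seen, and capitals are as above. The windows are HSP42 at chrIV:806371-806670, plus strand, HSP78 at chrIV:974194-974493, minus strand, STI1 at chrXV:380803-381102, plus strand, and SSA2 at chrXII:97436-97735, minus strand.
HSP42: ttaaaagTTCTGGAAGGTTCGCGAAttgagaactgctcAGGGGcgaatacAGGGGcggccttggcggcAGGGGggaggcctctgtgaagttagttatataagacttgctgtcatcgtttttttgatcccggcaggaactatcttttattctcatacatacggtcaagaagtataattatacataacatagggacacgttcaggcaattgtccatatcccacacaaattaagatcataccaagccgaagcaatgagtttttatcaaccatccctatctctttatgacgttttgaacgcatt
HSP78: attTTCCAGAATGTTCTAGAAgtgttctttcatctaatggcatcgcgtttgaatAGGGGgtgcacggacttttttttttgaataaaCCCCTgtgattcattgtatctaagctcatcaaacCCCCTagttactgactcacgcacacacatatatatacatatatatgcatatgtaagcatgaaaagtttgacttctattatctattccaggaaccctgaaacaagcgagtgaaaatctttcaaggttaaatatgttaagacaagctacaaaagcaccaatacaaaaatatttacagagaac
STI1: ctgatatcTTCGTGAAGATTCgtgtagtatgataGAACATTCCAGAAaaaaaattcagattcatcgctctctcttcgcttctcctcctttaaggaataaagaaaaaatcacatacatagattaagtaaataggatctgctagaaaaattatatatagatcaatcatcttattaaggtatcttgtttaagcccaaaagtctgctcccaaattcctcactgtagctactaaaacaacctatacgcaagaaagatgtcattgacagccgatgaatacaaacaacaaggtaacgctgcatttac
SSA2: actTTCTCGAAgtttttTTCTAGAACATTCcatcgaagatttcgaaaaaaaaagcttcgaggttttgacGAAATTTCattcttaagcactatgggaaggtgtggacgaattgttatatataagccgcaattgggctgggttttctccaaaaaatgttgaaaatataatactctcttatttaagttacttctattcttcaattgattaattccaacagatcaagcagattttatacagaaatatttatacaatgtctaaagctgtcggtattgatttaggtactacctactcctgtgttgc
HSP42 and HSP78, lower in mNmC, each held 2 overlapping heat shock elements of 3 units and 3 stress response elements. STI1, which did not pass, held 2 heat shock elements of 3 units and no stress response element. SSA2, higher in mNmC, held 1 heat shock element of 3 units, 4 of 2 units and no stress response element. Over the list, a stress response element was present in 4 of the 5 lower chaperones (SSA4, HSP104, HSP42 and HSP78), in 1 of the 7 higher ones (FES1) and in 3 of the 9 that did not pass (SSA1, HSP82 and MBF1). With the 250 bases before the start alone, 0 of the 7 higher chaperones held a stress response element. The lower ones and the others stayed at 4 of 5 and 3 of 9. In the full windows a heat shock element of 2 units was present in 3 of 5 lower, 6 of 7 higher and 7 of 9 others. Among the lower ones SSA4 and HSP104 held 0, and sequence further from the start was not searched. CPR6, also lower, held 2 of them and 0 stress response elements. Among all 5804 promoters, 0.775% held an element of 3 units, 22.9% one of 2 units and 21.9% a stress response element.

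The share of promoters with a stress response element followed the fold change across the genome, as a description without a test. It was 51% of the 100 genes lower by more than 2 on the log2 scale, 41.8% of 390 genes between -2 and -1 and 30.8% of 691 between -1 and -0.5. It was 19.7% of 3368 genes within 0.5 of 0, and then 14.9% of 777, 13.7% of 401 and 11.7% of 77 in the bins above, up to those higher by more than 2. Of 1748 promoters of genes called higher in mNmC, 13.5% held the element, and of 1647 called lower, 32.5%. Heat shock elements of 2 units stood in 19% of promoters in the lowest bin, then in 26.4%, 21.7%, 22.4%, 22.7% and 25.7%, and in 28.6% in the highest bin. They were present in 24.3% of the higher genes, 23.4% of the lower genes and 22.9% of all. In the list of Msn2 and Msn4 genes 22 of 33 promoters (66.7%) held a stress response element.

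**Figure D4:**
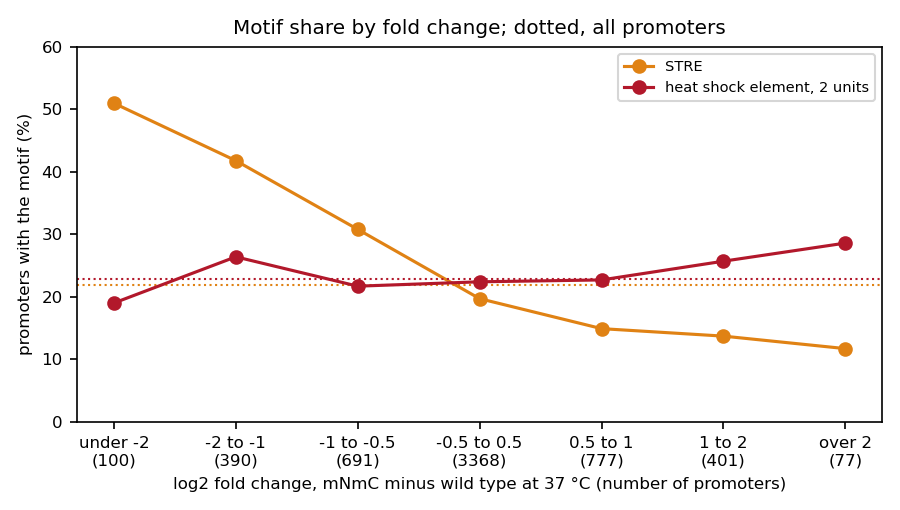
Share of promoters (%, 250 bases before to 50 after the start) with a stress response element (STRE) or a heat shock element of 2 units, by bins of the log2 fold change of mNmC minus wild type at 37 °C from 13 libraries, with the number of promoters in brackets. The STRE share runs from 51% in the lowest bin to 11.7% in the highest, and dotted lines give the shares of all promoters, 21.9% and 22.9%.

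Heat genes with both kinds of control lay between these lists by their median, but the lists share members. SSA4, HSP104, HSP42, HSP78 and HSP82 are also counted among the Hsf1 target chaperones, and HSP12 among the Msn2/4 genes. Of 12 genes shared by Hsf1 and Msn2/4, 11 were lower in mNmC than at 37 °C and HSP82 did not pass, with a median of -0.90. The share called lower over all tested genes was 28.8%. Against 30 °C, 11 were higher in mNmC (median 1.60) and 12 at 37 °C (median 2.59). SSA3 (YBL075C), the other stress-inducible Hsp70, had 183, 192 and 573 FPKM in mNmC 1 to 3, against 591, 602 and 173 FPKM in 37 °C 1 to 3 and 62.3 ± 2.86 FPKM at 30 °C. HSP31, a methylglyoxalase and chaperone, differed by -3.10 ± 0.08 and stood 0.28 in mNmC and 3.38 at 37 °C above the baseline. UBI4 (-0.70 ± 0.10), the polyubiquitin gene, SSE2 (-0.85 ± 0.09), an Hsp110 exchange factor, and HSP30 (-1.74 ± 0.19), a membrane protein of chromosome III, were also lower. Without HSP12 and HSP30, which lie on chromosomes VI and III, 9 of 10 were lower.

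Chaperones bound to ribosomes and those of the chaperonin CCT were mostly higher in mNmC than after heat, while cytosolic Hsp70 genes went both ways. Of 14 genes for cytosolic Hsp70 and proteins working with it, 6 were higher (42.9%), 4 lower (28.6%) and 4 did not pass (median 0.25). Among all tested genes 28% were called higher and 28.8% lower. With upper-quartile scaling 5 of the 14 were higher and 4 lower. The J-protein APJ1 (1.21 ± 0.12) was higher and the J-protein SWA2 (-1.05 ± 0.07) lower. Of 7 chaperones bound to ribosomes, which meet new chains as they leave the tunnel, 6 were higher and EGD1 0.77 (95% interval 0.07 to 1.48) did not pass, though it did with upper-quartile scaling (median 1.05). Against 30 °C, 0 of these 7 were higher and 1 lower in mNmC, and 7 were lower at 37 °C. SSB1 (YDL229W), the ribosome-bound Hsp70, had 501, 551 and 204 FPKM in mNmC 1 to 3, against 188, 190.5 and 534 FPKM in 37 °C 1 to 3 and 652 ± 6.75 FPKM at 30 °C. Its level in mNmC 1 and 2 was near the baseline and that of 37 °C 1 and 2 well below it. SSB2 (1.33 ± 0.19), ZUO1 (1.28 ± 0.09) and SSZ1 (1.05 ± 0.07) followed. Of 9 genes of the chaperonin CCT and its helpers, which fold actin and tubulin, 8 were higher and 1 did not pass (median 0.56), led by PLP2 (0.85 ± 0.11) and CCT8 (0.74 ± 0.08).

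Of 14 genes for Hsp90 and its cochaperones 4 were higher (28.6%), 2 lower (14.3%) and 8 did not pass (median 0.06), where 28% and 28.8% of all tested genes were called. With upper-quartile scaling 4 were higher and 1 lower. TAH1 (1.64 ± 0.42), a cochaperone gene on chromosome III, PPT1 (1.25 ± 0.09), a phosphatase, and CNS1 (0.81 ± 0.13) were higher. Of 11 genes of disaggregation and sorting, 3 were higher, 5 lower and 3 did not pass (median -0.02). All 11 were called above the 30 °C baseline in both groups with 13 libraries. With upper-quartile scaling 8 were above it in mNmC and 10 at 37 °C, and as labelled 9 and 10. Of 9 mitochondrial chaperones 3 were higher, 2 lower and 4 did not pass, with MGE1 (0.70 ± 0.17) and SSC1 (0.30 ± 0.09), which did not pass with upper-quartile scaling, higher and ECM10 (-0.41 ± 0.09) lower. Among 16 genes of ubiquitin and its ligases for misfolded proteins 2 were higher, 5 lower and 9 did not pass (median -0.13), with HRD1 (-1.36 ± 0.09), the ligase of the endoplasmic reticulum, the lowest. RPN4, the transcription factor of proteasome genes, was higher in mNmC, with 118, 129.6 and 65.4 FPKM in mNmC 1 to 3, against 64.8, 63.7 and 118 FPKM in 37 °C 1 to 3 and 49.7 ± 4.5 FPKM at 30 °C, a difference of 0.93 ± 0.14 (limma adjusted p = 0.000163).

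Most proteasome subunit genes did not pass between the groups. Of 32, 8 were higher in mNmC (25%), 3 lower (9.4%) and 21 did not pass, with a median of 0.15. Among all tested genes 28% were called higher and 28.8% lower, so the share of higher subunit genes was not above that of all genes. With upper-quartile scaling 12 were higher and 3 lower. The 3 lower subunit genes, PRE4 (-1.04 ± 0.26), RPN11 (-0.84 ± 0.08) and RPN12 (-0.81 ± 0.08), are the 3 that lie on chromosome VI, and without them 8 of 29 were higher and 0 lower. RPN12, of the proteasome lid, had 129.5, 136 and 242 FPKM in mNmC 1 to 3, against 239.9, 226 and 135 FPKM in 37 °C 1 to 3 and 222 ± 6.19 FPKM at 30 °C. RPT1 (0.56 ± 0.13), an ATPase of the proteasome base, and PUP1 (0.46 ± 0.15), a catalytic subunit, were among the higher ones. The Rpn4 motif GGTGGCAAA, searched on both strands, stood in 27 of 32 of these promoters (84.4%) and in 1.22% of all.

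The unfolded protein response of the endoplasmic reticulum separated the groups. Of 15 genes 13 were lower in mNmC than at 37 °C, 0 higher and 2 did not pass, with a median of -1.13. The shares over all tested genes were 28% higher and 28.8% lower. Against 30 °C, 2 were higher and 2 lower in mNmC (median 0.03), and 13 were higher at 37 °C (median 1.26). With upper-quartile scaling the median of mNmC was -0.18, with 1 higher and 4 lower, and that of 37 °C 1.03. SIL1 (YOL031C), an exchange factor of the Hsp70 of the endoplasmic reticulum, had 45.6, 49.5 and 267 FPKM in mNmC 1 to 3, against 269, 258 and 43.3 FPKM in 37 °C 1 to 3 and 54.9 ± 4.47 FPKM at 30 °C. MPD1 (-2.43 ± 0.11), a disulfide isomerase, JEM1 (-1.54 ± 0.09) and LHS1 (-1.50 ± 0.08) were lower too, as was ULI1 (-2.47 ± 0.16) on chromosome VI. HAC1 (YFL031W), the transcription factor of this response, whose mRNA is spliced by Ire1, had 192, 167 and 1008 FPKM in mNmC 1 to 3, against 1006, 1112 and 191 FPKM in 37 °C 1 to 3 and 339.6 ± 10.6 FPKM at 30 °C. It was below the baseline in mNmC 1 and 2 and above it in 37 °C 1 and 2, and it also lies on chromosome VI. Without the 2 members on chromosomes III and VI, 11 of 13 response genes were lower. Of 14 regulators of heat and stress, HSF1 and HAC1 included, 2 were higher (14.3%), 8 lower (57.1%) and 4 did not pass. MSN2 (-0.46 ± 0.12) was lower and MSN4 stood at 0.03 (95% interval -0.19 to 0.25). RIM15 (-1.77 ± 0.10), a kinase gene of chromosome VI, GIS1 (-1.15 ± 0.08) and CRZ1 (-0.99 ± 0.08), the calcineurin-dependent factor, were lower.

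Genes for making ribosomes were almost all higher in the mutant. Of 137 ribosomal protein genes, 133 were higher in mNmC than in heat-shocked wild type, RPS14B (-0.81 ± 0.09) was lower and 3 did not pass, with a median of 1.90. The share called higher over all tested genes was 28%. Against 30 °C, 9 were higher and 21 lower in mNmC (median -0.15), and 1 was higher and 129 lower at 37 °C (median -2.09). With upper-quartile scaling 61 were lower in mNmC (median -0.36) and 131 at 37 °C (median -2.32). As labelled 2 were lower in mNmC and 63 at 37 °C. RPS9B (YBR189W), of the small subunit, had 2484, 2651 and 459.9 FPKM in the libraries labelled mNmC 1 to 3, against 466, 445 and 2581 FPKM in those labelled 37 °C 1 to 3 and 3019.6 ± 150.1 FPKM in wild type at 30 °C (SD, n = 3). RPL24A (YGL031C), of the large subunit, had 1432, 1628 and 232 FPKM in mNmC 1 to 3, against 243, 213 and 1562 FPKM in 37 °C 1 to 3 and 1573 ± 96.4 FPKM at 30 °C. Both stood near the baseline in mNmC 1 and 2 and several-fold under it in 37 °C 1 and 2, with no overlap. The rule that named both genes required that absence of overlap. The 15 highest genes of the comparison, at 2.42 to 4.22 with limma adjusted p between 1.84e-09 and 0.000118, held 11 of these proteins.

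They were RPL35A (4.22 ± 0.61), RPL9A (2.89 ± 0.20), RPS26B (2.85 ± 0.29), RPL24A (2.74 ± 0.14), RPL31B (2.65 ± 0.20), RPS9B (2.49 ± 0.12), RPS1B (2.48 ± 0.14), RPS6A (2.46 ± 0.15), RPS31 (2.43 ± 0.21), RPS8B (2.42 ± 0.11) and RPL21A (2.42 ± 0.16). RPL35A had an uneven baseline, with 1712, 466 and 2305 FPKM in the 3 libraries at 30 °C. Most of these genes have a near-identical copy, so that their levels too rest on an unstated assignment of shared reads. The other 4 of the 15 were the pheromone genes MF(ALPHA)2 and MF(ALPHA)1, described below, COS12 (2.84 ± 0.09), and URA1 (2.64 ± 0.09), an enzyme of pyrimidine synthesis. URA1 had 850.2, 808 and 130.2 FPKM in mNmC 1 to 3, against 139, 126 and 879 FPKM in 37 °C 1 to 3 and 770.3 ± 43.7 FPKM at 30 °C, level with the baseline in the mutant and well under it after heat.

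Of 56 ribosome assembly factors 55 were higher in mNmC and SPB4 (-0.64 ± 0.12), an RNA helicase gene on chromosome VI, was lower, with a median of 1.44. The shares over all tested genes were 28% higher and 28.8% lower. Against 30 °C, 37 were higher and 1 lower in mNmC (median 0.38), and 54 were lower at 37 °C (median -0.97). With upper-quartile scaling 16 were higher and 2 lower in mNmC (median 0.17), and as labelled 1 was higher and 1 lower (median -0.04). NOP15 (YNL110C), a factor of the large subunit, had 83.3, 116 and 29.9 FPKM in mNmC 1 to 3, against 26.4, 25.4 and 80.1 FPKM in 37 °C 1 to 3 and 46.7 ± 2.42 FPKM at 30 °C. The mNmC pair lay above the baseline and the 37 °C pair below it. NOP7 (1.80 ± 0.15), NHP2 (1.77 ± 0.12) and, on chromosome III, KRR1 (1.83 ± 0.12) were among the largest. Of 12 genes of RNA polymerase I, which transcribes ribosomal RNA, 9 were higher, 1 lower and 2 did not pass (median 1.12), led by RPA43 (1.66 ± 0.10) and RPA49 (1.35 ± 0.11). Of 27 translation factors 23 were higher, ANB1 (-1.02 ± 0.12) and HEF3 (-1.10 ± 0.10) lower, and 2 did not pass (median 0.96), with TIF11 (1.64 ± 0.12) and the cap-binding protein CDC33 (1.21 ± 0.12) among the higher ones.

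**Figure D5:**
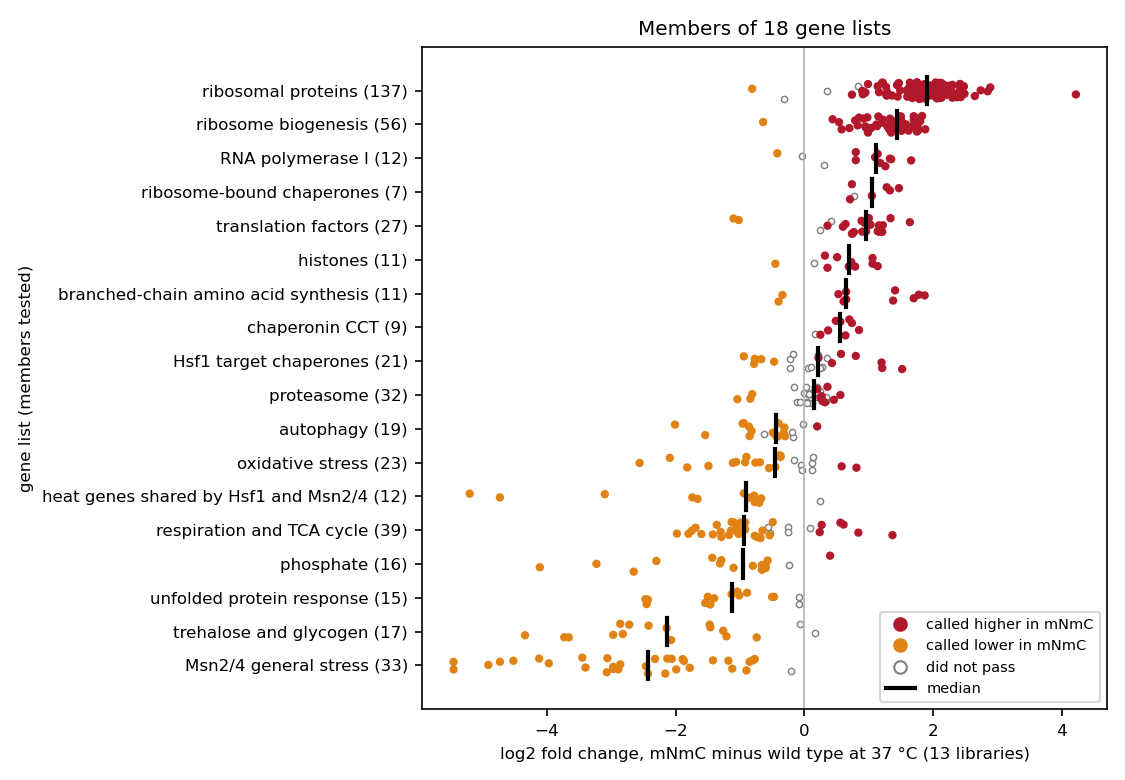
Log2 fold change of mNmC minus wild type at 37 °C from 13 libraries for the members of 18 gene lists, 1 point per gene, filled where called and open where it did not pass, with a bar at the median. Msn2/4 genes have a median of -2.43, Hsf1 target chaperones of 0.22 and ribosomal proteins of 1.90.

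Storage carbohydrate and respiration genes were lower in the mutant than after heat. Of 17 trehalose and glycogen genes 15 were lower, 0 higher and 2 did not pass, with a median of -2.14. The shares over all tested genes were 28% higher and 28.8% lower. Against 30 °C, 6 were higher and 4 lower in mNmC (median 0.09), and 16 were higher and 1 lower at 37 °C (median 2.25). With upper-quartile scaling 4 were higher and 5 lower in mNmC (median -0.12). TSL1 (YML100W), a subunit of trehalose synthase, had 75, 71.3 and 879.7 FPKM in mNmC 1 to 3, against 919.8, 1043 and 70.1 FPKM in 37 °C 1 to 3 and 68.9 ± 3.95 FPKM at 30 °C. GPH1 (-3.66 ± 0.15), glycogen phosphorylase, UGP1 (-2.86 ± 0.09), which makes UDP-glucose, and GSY1 (-2.97 ± 0.10), a glycogen synthase of chromosome VI, were lower. Of 39 respiratory and TCA cycle genes 28 were lower, 6 higher and 5 did not pass (median -0.93), with 28 higher and 2 lower in mNmC against 30 °C and 34 higher and 1 lower at 37 °C. With upper-quartile scaling 17 were higher and 2 lower in mNmC, and 32 higher and 3 lower at 37 °C. QCR8 (-1.75 ± 0.21), QCR10 (-1.80 ± 0.31) and RIP1 (-1.69 ± 0.09), subunits of complex III, were among them, and so was QCR6 (-1.98 ± 0.17) on chromosome VI.

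Genes of sugar uptake and glycolysis are given next. Of 18 hexose transporter genes tested, 3 were higher, 9 lower and 6 did not pass (median -0.46). HXT3 (YDR345C), a transporter of low affinity used at high glucose, had 2936, 2788 and 679.6 FPKM in mNmC 1 to 3, against 669, 606 and 3104 FPKM in 37 °C 1 to 3 and 1927 ± 91 FPKM at 30 °C. HXT6 (-2.06 ± 0.20) and HXT7 (-1.34 ± 0.18), near-identical transporters of high affinity, were lower, and HXT2 (1.14 ± 0.22) higher. Of 19 genes of glycolysis and fermentation 3 were higher (15.8%), 5 lower (26.3%) and 11 did not pass (median -0.01), fewer than the 28% and 28.8% among all genes, with HXK2 (1.17 ± 0.12), the main hexokinase on glucose, higher and PYK2 (-1.81 ± 0.09) and TDH1 (-1.66 ± 0.18) lower. TDH1 varied within the mutant, with 1039.9, 625 and 2550.4 FPKM in mNmC 1 to 3, against 2487, 2625 and 972 FPKM in 37 °C 1 to 3 and 741 ± 47.8 FPKM at 30 °C.

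Amino acid genes split by pathway. Of 11 genes of branched-chain amino acid synthesis 9 were higher in mNmC, LEU4 (-0.40 ± 0.07) and BAT2 (-0.34 ± 0.07) were lower, and the median was 0.65. Against 30 °C, 1 was higher and 7 lower in mNmC, and 1 higher and 8 lower at 37 °C. LEU1 (YGL009C), isopropylmalate isomerase, had 127, 128 and 34.2 FPKM in mNmC 1 to 3, against 34, 34 and 131 FPKM in 37 °C 1 to 3 and 399 ± 10.6 FPKM at 30 °C. Both groups lay under the baseline, the 37 °C pair further than the mNmC pair, and the difference was 1.87 ± 0.10 (limma adjusted p = 5.72e-08). ILV3 (1.78 ± 0.15) and BAT1 (1.70 ± 0.13) followed. The Gcn4 motif TGACTC, searched on both strands, stood in 7 of 11 of these promoters (63.6%) and in 8.1% of all. Of 35 other amino acid genes 18 were higher (51.4%), 12 lower (34.3%) and 5 did not pass (median 0.25). ARO4 (1.25 ± 0.07) was higher and the arginine genes ARG3 (-2.22 ± 0.13) and ARG1 (-1.17 ± 0.09) were lower. Of 23 sulfur and methionine genes 5 were higher (21.7%), 10 lower (43.5%) and 8 did not pass (median -0.26). SAM1 (1.54 ± 0.14) was higher and MET13 (-1.45 ± 0.08) lower. The shares over all tested genes were 28% higher and 28.8% lower.

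Genes of phosphate and iron supply were mostly lower in the mutant than in wild type, heated or not. Of 16 phosphate genes 14 were lower than at 37 °C, PHO5 (0.40 ± 0.07) was higher and 1 did not pass, with a median of -0.95. The shares over all tested genes were 28% higher and 28.8% lower. Against 30 °C, 14 were lower and 2 higher in mNmC (median -1.44), and 8 were lower and 2 higher at 37 °C (median -0.36). PHO84 (YML123C), the high-affinity phosphate transporter, had 155, 211 and 1426 FPKM in the libraries labelled mNmC 1 to 3, against 1182, 1092 and 199 FPKM in those labelled 37 °C 1 to 3 and 976 ± 5.57 FPKM in wild type at 30 °C (SD, n = 3). The mNmC pair lay under both wild-type groups, which were near each other. SPL2 (-3.23 ± 0.28), an inhibitor of low-affinity phosphate uptake, and PHO89 (-2.30 ± 0.28), a sodium-phosphate transporter, showed the same order, and VTC2, on chromosome VI, stood at -0.80 ± 0.09. The lowest member, PHO92 (YDR374C), which encodes a YTH-domain RNA-binding protein, had another order, with 4.56, 6.57 and 113 FPKM in mNmC 1 to 3, against 120.0, 103 and 5.19 FPKM in 37 °C 1 to 3 and 1.09 ± 0.515 FPKM at 30 °C. It was lower in mNmC than at 37 °C, with a log2 fold change of -4.11 ± 0.28 (limma adjusted p = 3.1e-07), and above 30 °C in both, by 1.67 in mNmC and 5.78 at 37 °C. Of 23 iron genes 15 were lower, 1 higher and 7 did not pass (median -0.54), with 14 lower and 4 higher in mNmC against 30 °C and 8 lower and 11 higher at 37 °C. With upper-quartile scaling 19 were lower and 2 higher in mNmC, and 9 lower and 9 higher at 37 °C. FIT2 (YOR382W), a cell wall protein that retains siderophore iron, had 754, 704 and 2374 FPKM in mNmC 1 to 3, against 2135, 2364 and 795 FPKM in 37 °C 1 to 3 and 1942 ± 109.9 FPKM at 30 °C. ENB1 (-1.47 ± 0.10), a siderophore transporter, and FRE3 (-1.14 ± 0.10), a reductase, were lower as well.

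Histone genes and some genes of the cell cycle were higher in the mutant. Of 11 histone genes 9 were higher, 1 lower and 1 did not pass (median 0.69), led by HTA2 (1.14 ± 0.19) and HHT1 (1.06 ± 0.11). Against 30 °C, 1 was higher and 3 lower in mNmC, and 0 were higher and 8 lower at 37 °C. With upper-quartile scaling 0 were higher and 9 lower in each. Of 18 genes of G1 cyclins and DNA synthesis 9 were higher, 5 lower and 4 did not pass (median 0.21). CLN2 (YPL256C), a G1 cyclin, had 72.1, 74.7 and 22 FPKM in mNmC 1 to 3, against 21.4, 19.3 and 74.7 FPKM in 37 °C 1 to 3 and 81.1 ± 5.45 FPKM at 30 °C. RNR1 (1.29 ± 0.10), ribonucleotide reductase, was higher, and RNR3 (-1.18 ± 0.09) and HUG1 (-1.12 ± 0.36), both induced by DNA damage, were lower. Of 26 ergosterol genes 14 were higher (53.8%), 3 lower (11.5%) and 9 did not pass (median 0.22), with ERG3 (0.92 ± 0.08) and ERG24 (0.88 ± 0.09) the highest.

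Genes of the alpha pheromone were higher in mNmC than after heat. MF(ALPHA)1 (YPL187W), which encodes the alpha-factor pheromone, had 4304, 3917 and 486 FPKM in the libraries labelled mNmC 1 to 3, against 635, 588 and 4099.6 FPKM in those labelled 37 °C 1 to 3 and 3779 ± 354 FPKM in wild type at 30 °C (SD, n = 3). MF(ALPHA)2 (YGL089C), its minor copy, had 2909.7, 2273 and 407 FPKM in mNmC 1 to 3, against 351, 282 and 2491 FPKM in 37 °C 1 to 3 and 3221 ± 419 FPKM at 30 °C. Both were near the baseline in mNmC 1 and 2 and far below it in 37 °C 1 and 2, with differences of 2.75 ± 0.15 (limma adjusted p = 8e-08) and 3.03 ± 0.21. SAG1 (2.26 ± 0.19), the alpha-agglutinin, was higher too. Several genes of the other mating type were lower, with the largest differences in STE2 and MFA2. STE6 (-0.87 ± 0.11), AGA2 (-0.79 ± 0.25) and BAR1 (-0.39 ± 0.13) were lower by less. STE2, the alpha-factor receptor gene on chromosome VI, had 4.14, 5.37 and 34.7 FPKM in mNmC 1 to 3, against 36, 34.9 and 5.84 FPKM in 37 °C 1 to 3 and 9.04 ± 0.828 FPKM at 30 °C. MFA2, an a-factor gene, had 21, 31.6 and 109 FPKM in mNmC 1 to 3, against 109, 118 and 34 FPKM in 37 °C 1 to 3 and 19.9 ± 2.75 FPKM at 30 °C. Both were lower in mNmC 1 and 2 than in 37 °C 1 and 2, with log2 fold changes of -2.67 ± 0.16 for STE2 and -2.10 ± 0.32 for MFA2. MFA1, the other a-factor gene, had 54.8, 56.4 and 53.5 FPKM in mNmC 1 to 3, against 55, 55.1 and 47.4 FPKM in 37 °C 1 to 3 and 12.7 ± 1.55 FPKM at 30 °C, and its difference was 0.01 (95% interval -0.52 to 0.55). Over all 19 genes of the list 5 were higher, 6 lower and 8 did not pass (median 0.01), beside 28% and 28.8% of all genes.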

How the data were processed

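Messenger RNA of 15 yeast libraries, 3 in each of 5 groups, was measured by RNA-seq. The authors deposited 1 table of FPKM values per gene and library, and per the submitters' processing notes Bowtie2 2.2.3, TopHat2 2.0.12 and HTSeq 0.6.1 were used. Genome build, annotation, strand setting and the treatment of reads shared by near-identical genes were not given in those notes or the labels. Therefore overlapping genes and paralogs are uncertain. Depth was recovered from the spacing of low FPKM values, of which 98.8% to 99.1% came out as whole reads within 0.01 read. It was 15.5 to 22.6 M reads in the libraries compared.

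Values were tested as log2(FPKM + 1) with limma 3.58.1 in R 4.3.3, with means for 5 groups, a mean-variance trend and Benjamini-Hochberg adjustment over 6399 genes, and called at an adjusted p under 0.05. Adding 1 understates the fold changes of low genes. The script was tested on simulated data whose spread was taken from the 13 libraries. No simulated library lay with the other group, so that test does not bear on the absence of calls as labelled. P-values measure the spread between the biological replicates, and fewer cells of a kind and less RNA per cell cannot be told apart in bulk RNA. By rule the genes named are HSF1, the 15 highest and 15 lowest called genes of the 13 libraries with non-overlapping groups and 10 FPKM or more on average, the Hsf1 target chaperones, and up to 4 members of each list with the largest differences, and the promoters of the 3 lowest. As labelled no gene met the rule. The other genes named were chosen after their values were seen. The members and lists were chosen with earlier results of these data known, and the alternative without chromosomes III and VI was chosen after seeing the data. The labels give no batch. The labels do not say that a replicate number marks a shared batch or day. Alternatives were 13 libraries, upper-quartile scaling, another pseudocount, other filters, no trend, a replicate block, the compared groups alone and leaving out each replicate.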

Additional observations from a re-analysis of the deposited data

How the results depend on the processing

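As labelled, 0 genes were called between mNmC and 37 °C in limma, and 0 also under each other scaling, filter, trend, pseudocount and group choice and without any single replicate (0 to 0). Only leaving out both odd libraries gave calls, 3637 genes with 13 libraries, 3782 with upper-quartile scaling added, 3538 with a pseudocount of 0.1, 4173 with only the groups compared and 3417 without chromosomes III and VI. Of the 3637 genes, 3484 were also called with upper-quartile scaling, 3537 with the other pseudocount and 3537 with only the groups compared, all in the same direction. Between mNmC and 30 °C, 1721 genes were called as labelled, 1004 with upper-quartile scaling, 3071 with 13 libraries, 3036 with a pseudocount of 0.1 added, 4024 with only the groups compared, 2818 without chromosomes III and VI, and 983 to 1597 without single replicates. Between 37 °C and 30 °C, 2435 were called as labelled, 4217 with 13 libraries, 4108 with upper-quartile scaling added, 4171 with a pseudocount of 0.1, 4960 with only the groups compared, 4031 without chromosomes III and VI, and 1146 to 3585 without single replicates.

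With the replicate block, 0, 1358 and 1881 genes were called in the 3 comparisons, and the libraries share only a number. Whether same-numbered libraries deviate together could not be judged between mNmC and 37 °C, because the 2 odd libraries set the sign of those deviations.

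With windows of 250 bases alone, 19.0% of all promoters, 10.9% of those of higher genes and 30.1% of those of lower genes held a stress response element. For heat shock elements of 2 units the shares were 19.5%, 21.1% and 19.6%, and for the Gcn4 motif 6.3%, 6.9% and 7.3%.

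Of the 172 genes tested under each setting, 8 changed sign under some. MDJ1, at 0.01 as labelled, was -0.17 with 13 libraries, also with another pseudocount or only the groups compared, and -0.15 with upper-quartile scaling, and MSN4, at -0.01, was 0.03 and 0.05 in the same settings. Without single replicates the log2 difference ran from -0.12 to 0.11 for MDJ1, -0.05 to 0.02 for MSN4, -0.15 to 0.0 for AHA1, -0.0 to 0.09 for HSP10, -0.05 to 0.16 for SSA1, -0.48 to 0.04 for SSA4, -0.0 to 0.1 for MFA1 and -1.47 to 0.19 for PHO89. The cause was not tested.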

Other observations

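Further gene groups are given here for mNmC against heat-shocked wild type with 13 libraries, where 28% of all tested genes were called higher and 28.8% lower. Of 8 stable noncoding RNAs tested 5 were lower, TLC1 (0.62 ± 0.15), the telomerase RNA, was higher and 2 did not pass (median -1.17). SCR1, which encodes signal recognition particle RNA, had 252, 261 and 1069 FPKM in mNmC 1 to 3, against 1246, 1274 and 226 FPKM in 37 °C 1 to 3 and 33.3 ± 1.42 FPKM at 30 °C. RPR1 (-1.27 ± 0.15), the RNase P RNA, and NME1 (-2.09 ± 0.18), the RNase MRP RNA, were lower as well. All 3 were above wild type at 30 °C in both groups, RPR1 by 2.59 in mNmC and 3.86 at 37 °C. The libraries were enriched for poly(A) RNA with oligo(dT) beads per the labels, and the part of that step in these values was not tested.

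Of 23 oxidative stress genes 15 were lower, 2 higher and 6 did not pass (median -0.45), with TSA2 (-2.56 ± 0.07), a peroxiredoxin, GPX1 (-2.09 ± 0.25), a glutathione peroxidase, and SOD2 (-1.49 ± 0.17), the mitochondrial superoxide dismutase, lower. Of 19 autophagy genes 14 were lower, 1 higher and 4 did not pass (median -0.44), with ATG17 (-2.01 ± 0.13) the lowest and ATG18 (-1.54 ± 0.14) on chromosome VI. Of 26 nitrogen source genes 13 were lower, 2 higher and 11 did not pass (median -0.34), with DAL4 (-1.12 ± 0.14), an allantoin permease, and, on chromosome III, AGP1 (-0.98 ± 0.13) lower and TAT1 (0.93 ± 0.13) higher. Of 23 cell wall genes 6 were higher (26.1%), 8 lower (34.8%), shares near those of all genes, and 9 did not pass (median -0.01), with the aspartyl protease YPS1 (-1.64 ± 0.14) and chitin synthase CHS1 (-1.61 ± 0.09) lower and CWP2 (1.29 ± 0.14) higher. Of 8 DAN and TIR mannoproteins 5 were lower, 1 higher and 2 did not pass (median -0.72), with DAN1 (-1.44 ± 0.14) and TIR4 (-1.80 ± 0.22) lower and PAU24 (1.77 ± 0.26) higher.

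Of 21 genes for vitamin B6, thiamine and NAD 5 were higher (23.8%), 7 lower (33.3%) and 9 did not pass (median -0.01), near the shares of all genes. SNZ1 (YMR096W), of vitamin B6 synthesis, had 195, 310.5 and 71.5 FPKM in mNmC 1 to 3, against 60.8, 57.9 and 209 FPKM in 37 °C 1 to 3 and 38.7 ± 2.74 FPKM at 30 °C. Its neighbour SNO1 (1.40 ± 0.13) was higher as well, and PNC1 (-2.43 ± 0.28), nicotinamidase, was lower. Of 6 selection markers tested 3 were higher, 1 lower and 2 did not pass (median 0.31). HIS3 (YOR202W), an enzyme of histidine synthesis, had 195, 199 and 443 FPKM in mNmC 1 to 3, against 469, 416 and 196 FPKM in 37 °C 1 to 3 and 477 ± 34.2 FPKM at 30 °C.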
